A study of Mus musculus with 6 samples.

Results

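The genes described here are 45 regulators and effectors of Rac and parts of the actin engulfment machinery, chosen by name, and 43 of them had a value among the 18194 genes measured on each array. A gene was measured where at least 1 probe set, a group of short probes that report on 1 transcript, named that gene and no other. Where a gene had several such probe sets, the one with the highest mean over the 6 arrays gave its value. Arpc3 and Actr2, both of the Arp2/3 complex, are named only.

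Rac is a small GTPase that is switched on by guanine nucleotide exchange factors and drives the branched actin filaments that push out membrane ruffles and close phagocytic cups. In dead-cell uptake the receptors signal through the adaptors Crk and Gulp1 and through the Elmo and Dock pair to Rac, which then acts on PAK kinases and on the WAVE complex, and WAVE switches on Arp2/3. Rab GTPases carry the closed vesicle towards the lysosome. In the involuting mammary gland, which regresses after weaning, epithelial cells as well as immune phagocytes take up dead cells and leftover milk.

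The arrays compared 3 WT with 3 Rac1-/- mice of matched age at involution day 2, and each Affymetrix mouse array held RNA from 1 animal. All mice carried floxed alleles of Rac1 together with a YFP reporter that Cre turns on, and the Rac1-/- mice carried the WAPiCre transgene in addition. The whey acidic protein promoter drives this Cre in luminal epithelial cells from mid-pregnancy, so stromal and myoepithelial cells of Rac1-/- glands keep Rac1. The array is of the whole gland, in which fewer cells of a type and less RNA per cell cannot be told apart.

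The mice are called by their labels, Nas478, Nas483 and Nas484 for WT and Nas496, Nas497 and Nas518 for Rac1-/-, and values are given in this order. Levels are log2 intensities after quantile normalization between arrays, and differences are log2 fold changes of Rac1-/- against WT glands with their standard errors from limma. On the first principal component, with 44.3% of the variance, the scores were 77.8, 74.4 and -64.5 for the WT mice and 36.2, -119.2 and -4.7 for the Rac1-/- mice, so that Nas497 and Nas484 lay at one end, Nas478 and Nas483 at the other and each group was spread along it. The log2 difference of the 3' over the 5' end of the actin control probe sets, a reading of RNA quality, is called the actin difference here. It ran from -0.17 to 0.048 on WT arrays and from -1.24 in Nas497 to -0.30 on Rac1-/- arrays, without overlap. The same difference for Gapdh was -0.037, 0.016 and 0.16 on WT arrays and -0.044, 0.18 and -0.058 on Rac1-/- arrays. For Gapdh the groups overlapped and Nas497 and Nas484 were highest, so these controls gave different readings of RNA quality. Since the actin difference separates the groups, estimates adjusted for it cannot tell it apart from genotype. Of the milk protein genes, 0 of 6 lay above 0, and their summed intensities ran from 186438 to 220822 in WT and from 70166 to 110206 in Rac1-/- glands. Luminal markers lay above 0 for 7 of 10 genes, with sums from 8627 to 11060 and from 8619 to 9295. Sums over 9 myoepithelial markers ran from 1770 to 2480 in WT and from 2751 to 4216 in Rac1-/- glands. Of these genes 5 lay above 0, and the median log2 fold change was 0.021, or -0.37 under scaling to a common median. All Rac1-/- mice lay above all WT mice for Acta2 alone of the 9, at 1.24 (SE 0.56), against 5.41% of all genes. Bright genes weigh most in such a sum. Over 7 neutrophil markers, 5 of them above 0, sums ran from 428 to 577 in WT and from 640 to 786 in Rac1-/- glands. No marker was at the floor on any array.

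Rac1 itself did not separate the groups. On the brightest of its probe sets the levels were 9.31, 9.50 and 8.97 in WT glands against 9.51, 9.01 and 9.84 in Rac1-/- glands, which gives a log2 fold change of 0.19 (SE 0.47). Another bright probe set gave 8.74, 9.0 and 9.89 against 8.77, 8.34 and 8.14, with the highest WT mouse and the lowest Rac1-/- mouse far apart but with Nas496 above Nas478. Its log2 fold change was -0.80 (SE 0.50), so the bright probe sets differed in sign. On the remaining, dim probe set, Nas518 was at the floor and the groups overlapped. Since the sources used here do not name the exons that Cre removes, it is not known whether any of these probe sets checks the deletion.

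No gene of the engulfment machinery passed the test between WT and Rac1-/- glands, and the genes were spread to both sides of 0. Of the 43 genes, 20 had a higher and 23 a lower mean in Rac1-/- glands, and their median log2 fold change was -0.026 against 0.060 over all genes tested. At an adjusted p under 0.05 in limma, 0 members were called, where the share of all genes called was 0.0%, and the smallest adjusted p of a member was 0.946. At an unadjusted p under 0.05, Elmo1 and Pak3 were higher, which is 4.65% of members against 2.23% of all genes, and Arhgef6 was lower, which is 2.33% against 1.82%. Without Nas483 Elmo1 alone was past this threshold, without Nas497 0 members were, and after adjustment for the actin difference it was passed by 3 members of which 0 were these, namely Actr3, Baiap2 and Wasf3. All Rac1-/- mice lay above all WT mice for 3 members, Elmo1, Pak3 and Limk2, or 6.98% against 5.41% of all genes. All lay below for 2, Arhgef6 and Pak2, or 4.65% against 4.2%. These shares stand on counts of 1 to 3 genes and lie near those of all genes.

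The estimates were imprecise, with standard errors from 0.42 to 0.82 on the log2 scale, and 31 of the 43 lay within 1 standard error of 0. The tails were uneven, since 12 members had a log2 fold change under -0.5, which is 27.9% of members and 18.5% of all genes, while 6 had one over 0.5, which is 14% of members and 24.9% of all genes. Without Nas497 the lower tail held 8 members, or 18.6% against 20.7% of all genes, so it was no longer larger than over all genes. With the mean of all probe sets it held 9, or 20.9% against 19.9%, and with array weights 7, or 16.3% against 19.3%. Without Nas484 it held 13, or 30.2% against 23.5%. Under scaling to a common median it held 23, or 53.5% against 33.2%. After adjustment for the actin difference the tails turned, with 11 members under -0.5, or 25.6% against 29.2% of all genes, and 17 over 0.5, or 39.5% against 26.7%. The actin difference did not overlap between the groups and was by far lowest in Nas497. Adjusted estimates, here and below, therefore lean on that array and on a covariate that cannot be told apart from genotype. With 3 mice per group, the smallest p that an exact two-sided permutation test allows for a single gene is 0.1.

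**Figure D1:**
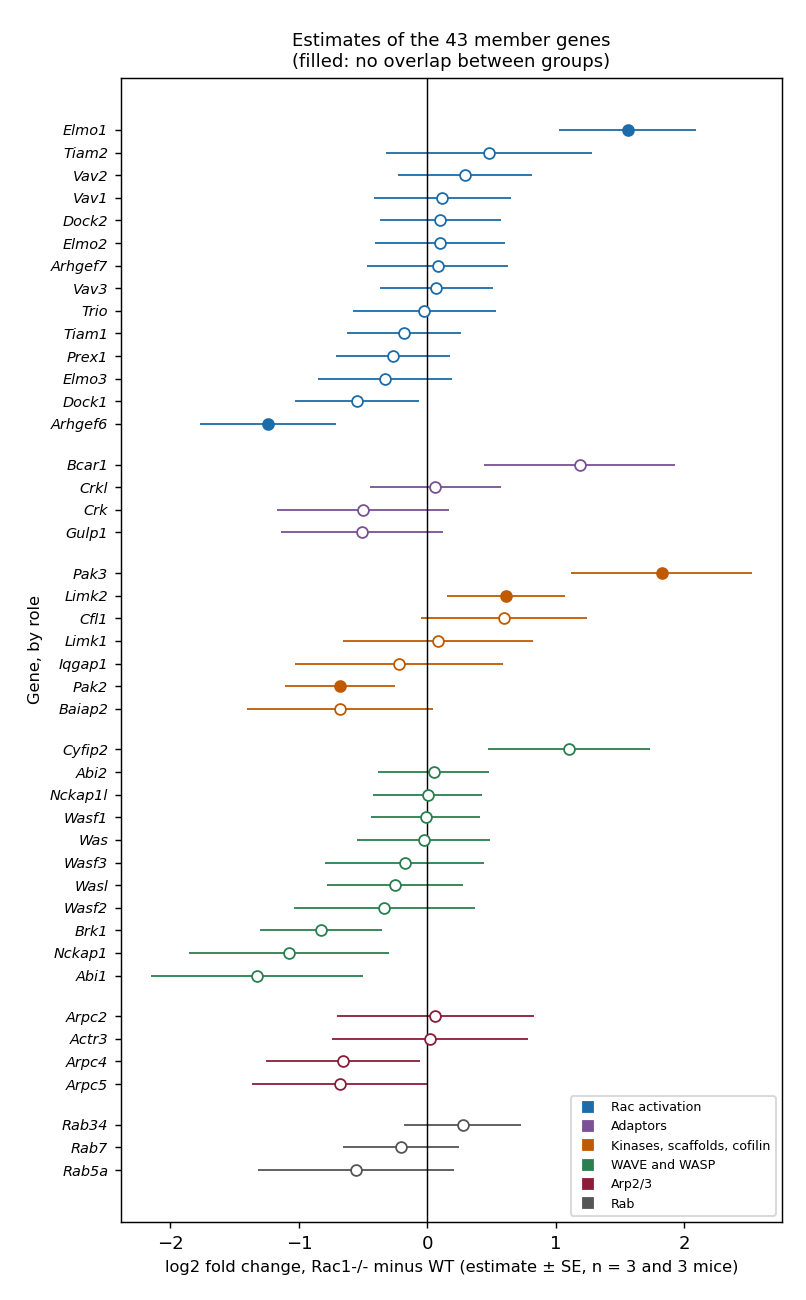
Log2 fold change, Rac1-/- against WT glands at involution day 2, of 43 genes of the engulfment machinery, grouped by role (colours). Points are limma estimates and bars standard errors, with 3 mice per group, and filled points mark the 5 genes whose groups did not overlap; the estimates run from -1.33 for Abi1 to 1.82 for Pak3, with 20 right of 0 and 23 left of it.

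Among the 14 genes that switch Rac on, 8 lay above and 6 below 0 around a median log2 fold change of 0.073, and the members at either end were Elmo1 and Arhgef6. Elmo1 is the adaptor that binds Dock1 and completes it as an exchange factor for Rac downstream of dead-cell receptors. Its levels were 6.99, 7.10 and 6.93 in WT glands against 7.68, 9.44 and 8.57 in Rac1-/- glands. The WT mice lay close together and every Rac1-/- mouse lay above them, with means of 7.01 ± 0.09 (SD, n = 3) and 8.56 ± 0.88 (SD, n = 3). The log2 fold change was 1.56 (SE 0.54, limma adjusted p = 0.946), or 2.95-fold on the linear scale. It ran from 1.22 without Nas497 to 1.96 without Nas496, and it was 0.73 under scaling to a common median and 0.77 after adjustment for the actin difference. A second probe set of Elmo1 also had all Rac1-/- mice above all WT mice, at 1.13 (SE 0.59), while the remaining one gave -0.25 (SE 0.64) with overlapping groups, so the probe sets of Elmo1 did not all move one way.

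Dock1, the exchange factor that Elmo1 binds, had levels of 8.99, 8.21 and 8.64 in WT glands against 8.08, 7.53 and 8.58 in Rac1-/- glands. The groups overlapped, since Nas518 lay above Nas483, and the log2 fold change was -0.55 (SE 0.48). Both members of the pair were thus measured on the same arrays with estimates of opposite sign, and Dock1 came to 0.02 after adjustment for the actin difference. The estimate of Elmo2 lay above 0 and that of Elmo3 below it, at 0.097 and -0.33.

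Arhgef6, an exchange factor for Rac and Cdc42 that binds PAK kinases, had levels of 7.28, 8.52 and 7.11 in WT glands against 6.83, 6.28 and 6.10 in Rac1-/- glands. All 3 Rac1-/- mice lay below the WT mice, with the lowest WT and the highest Rac1-/- mouse close together and Nas483 well above the other WT mice. The log2 fold change was -1.24 (SE 0.53, limma adjusted p = 0.946), or 2.36-fold lower on the linear scale. Without Nas483 it was -0.74, and without Nas484 it was -1.55. A dimmer probe set of Arhgef6 gave -0.27 (SE 0.50) with overlapping groups. Arhgef7, its close relative, lay near 0.

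The other 11 Rac activators had estimates from -0.33 to 0.48, and none of them had groups that did not overlap. They include Vav1, Vav2 and Vav3, exchange factors that act below receptors with tyrosine kinase signalling, which lay between 0.067 and 0.29, and Tiam1 and Tiam2, which lay at -0.18 and 0.48. Trio and Prex1, exchange factors with further roles in cell migration, lay below 0. Dock2 and Vav1, together with Was and Nckap1l of the WAVE and WASP proteins, are used mainly in blood cells, and their estimates ran from -0.029 to 0.12. This range depends on the probe set used. With the mean of all probe sets Dock2 had 0.85, Nckap1l 0.48, Vav1 0.32 and Was -0.029. In the same glands 10 of 12 pan-leukocyte markers lay above 0, at a median log2 fold change of 0.44, and their summed intensity ran from 2414 to 3120 in WT and from 3078 to 5925 in Rac1-/- glands. Of the macrophage markers 12 of 12 lay above 0 with a median of 0.64, and sums from 2520 to 5272 and from 3789 to 9419 overlapped. Under scaling to a common median these marker medians were -0.19 and -0.09. A dimmer probe set of Dock2 had all Rac1-/- mice above all WT mice, at 2.28 (SE 0.89), and its brightest did not.

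**Figure D2:**
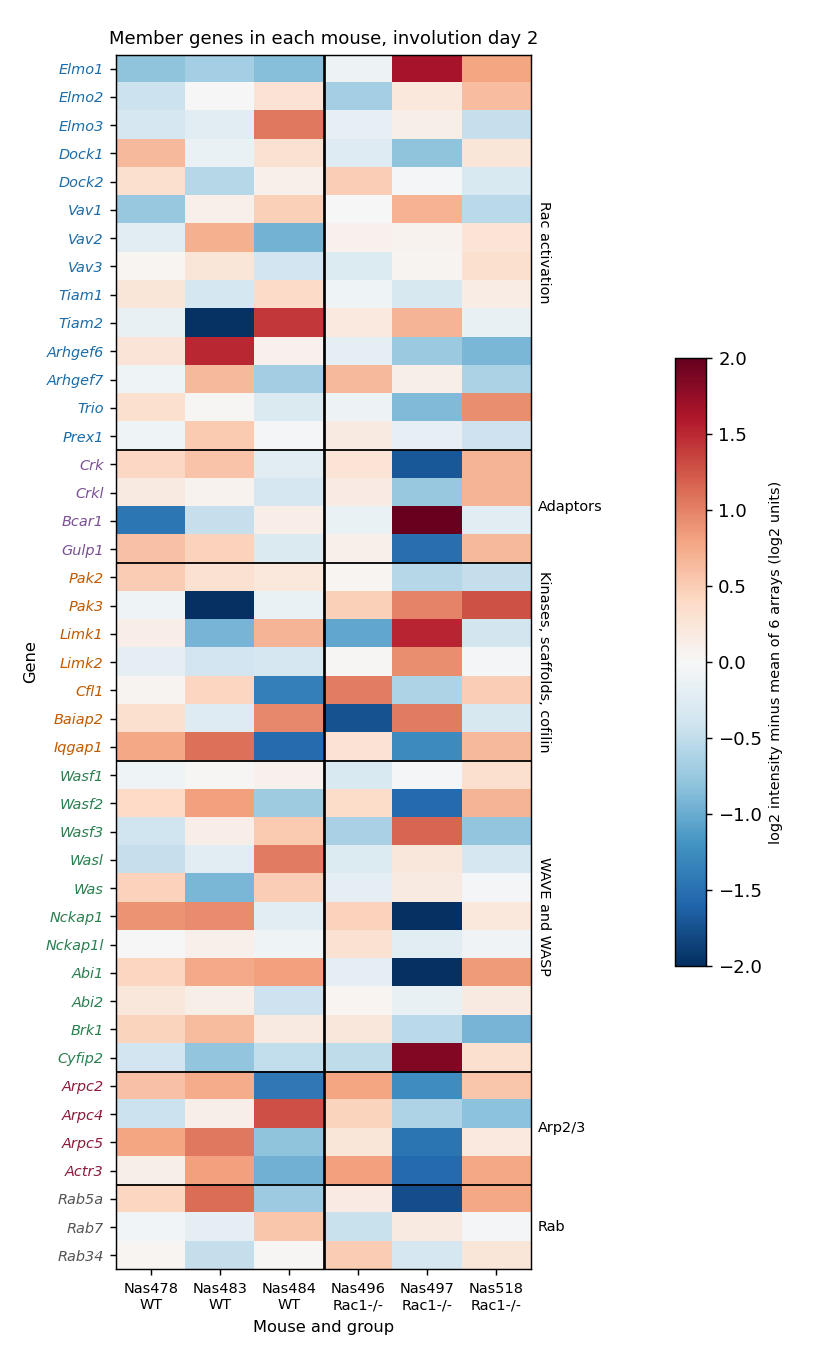
Log2 intensity of 43 genes in each of 6 mammary glands at involution day 2, as the difference from the gene's mean over the 6 arrays (colours, which stop at -2 and 2), with WT mice left and Rac1-/- mice right of the thick line and genes in rows by role. For genes such as Arpc2 and Rab5a the differences within a group are larger than that between groups, for Pak2 they are smaller, and Nas497 is the lowest array for 13 genes, among them Nckap1, Abi1, Arpc5 and Actr3.

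Adaptors upstream of Dock1 and at engulfment receptors showed no common direction. Of the 4, 2 lay above and 2 below 0 around a median log2 fold change of -0.22, which was 0.34 without Nas497 and -0.63 without Nas518. Crk, which links phosphorylated Bcar1 to Dock1, had levels of 8.43, 8.58 and 7.78 in WT glands against 8.28, 6.31 and 8.69 in Rac1-/- glands, which gives a log2 fold change of -0.50 (SE 0.67). The low value of Nas497 made this difference, and without that mouse it was 0.23. Gulp1, the adaptor of engulfment receptors with an NPxY motif, followed the same course, with 8.66, 8.53 and 7.79 in WT glands against 8.18, 6.56 and 8.71 in Rac1-/- glands. Its log2 fold change was -0.51 (SE 0.63), or 0.12 without Nas497. Adjustment for the actin difference turned Crk to 1.07 and Gulp1 to 0.90, and it moved the median of the 4 adaptors to 0.93. In Crk and in Gulp1 alike, Nas484 was the lowest WT mouse and Nas497 the lowest of all. A dimmer probe set of Gulp1 had every Rac1-/- mouse below every WT mouse, at -0.85 (SE 0.56). Bcar1, the scaffold that Crk binds, ran the other way, with 6.02, 6.99 and 7.59 in WT glands against 7.32, 9.61 and 7.23 in Rac1-/- glands and an estimated log2 fold change of 1.19 (SE 0.74). Again Nas497 stood apart, here as the highest, and the estimate was 0.45 without it, 0.05 over the mean of both Bcar1 probe sets and -0.55 after adjustment for the actin difference. Crkl, the relative of Crk, had 0.062.

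Of the 5 genes whose groups did not overlap, 3 were the kinases Pak3, Pak2 and Limk2, and these did not share a direction. Over all genes, 5.41% had all Rac1-/- mice above all WT mice and 4.2% had all below. Pak3, a Rac and Cdc42 effector kinase known mainly from neurons, had levels of 5.76, 3.34 and 5.72 in WT glands against 6.33, 6.84 and 7.12 in Rac1-/- glands. All Rac1-/- mice lay above all WT mice, but a single WT mouse, Nas483, lay far below the other two. The log2 fold change was 1.82 (SE 0.70, limma adjusted p = 0.946), or 3.54-fold on the linear scale, and 0.96 without Nas483. Its other probe sets lay above 0 as well, between 0.47 and 1.28, with overlapping groups. Pak3 is a dim gene here, and it was left out when only genes above the median mean were kept.

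Pak2, the widely expressed PAK, had levels of 7.76, 7.56 and 7.46 in WT glands against 7.29, 6.68 and 6.78 in Rac1-/- glands. All 3 Rac1-/- mice lay below the WT mice, by a narrow margin between Nas484 and Nas496. WT glands had a mean of 7.60 ± 0.15 (SD, n = 3), and Rac1-/- glands one of 6.92 ± 0.33 (SD, n = 3). The log2 fold change was -0.68 (SE 0.43) and ran from -0.85 to -0.55 when single mice were left out and was -0.44 after adjustment for the actin difference. The other Pak2 probe sets gave -0.35 and 0.24 with overlapping groups. Thus Pak2 and Pak3, kinases of the same family, had estimates of opposite sign. The difference between them was not tested.

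Limk2, a LIM kinase that PAK kinases switch on and that inactivates cofilin, had levels of 6.43, 6.25 and 6.29 in WT glands against 6.65, 7.55 and 6.59 in Rac1-/- glands. The groups did not overlap, with Nas497 well above the other Rac1-/- mice, and the log2 fold change was 0.61 (SE 0.46), or 0.33 without Nas497 and 0.00 after adjustment for the actin difference. Other Limk2 probe sets gave 0.73 and -0.70, so its direction differs by probe set. Cfl1, the gene of cofilin, which severs actin filaments, had levels of 11.63, 12.00 and 10.21 in WT glands against 12.60, 10.96 and 12.07 in Rac1-/- glands. The groups overlapped and the log2 fold change of 0.59 (SE 0.65) was 0.05 without Nas484, -0.55 under scaling to a common median, -0.08 without normalization between arrays and 1.72 after adjustment for the actin difference. The other Cfl1 probe set gave -0.34 (SE 1.03), with Nas484 and Nas497 as its highest mice where they were the lowest of their groups on the first. Limk1 and the scaffolds Baiap2 and Iqgap1 lay between -0.68 and 0.079 with overlapping groups.

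**Figure D3:**
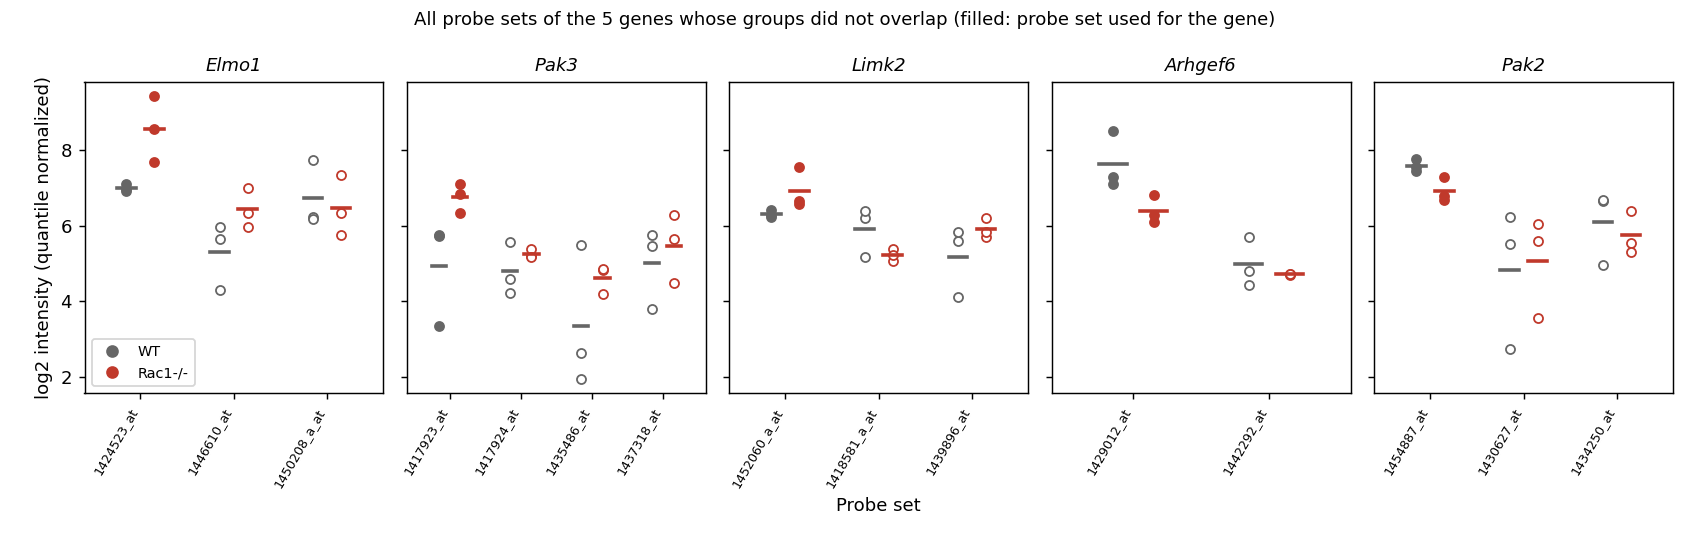
Log2 intensity on every probe set of Elmo1, Pak3, Limk2, Arhgef6 and Pak2, the 5 genes whose groups did not overlap, in 3 WT (grey) and 3 Rac1-/- glands (red) at involution day 2, with bars at group means. Filled points are the probe set that gave the gene its value; among the other probe sets of these genes, only the second of Elmo1 also separates the groups.

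WAVE and WASP proteins, which pass the signal of Rac and Cdc42 to Arp2/3, had 8 of 11 genes below 0 and a median log2 fold change of -0.18, and none separated the groups. Within the group the lowest estimates were those of Abi1 and Nckap1, core subunits of the WAVE complex. Abi1, the Abl interactor that holds the complex together, had levels of 8.88, 9.20 and 9.26 in WT glands against 8.26, 5.80 and 9.30 in Rac1-/- glands. Its log2 fold change of -1.33 (SE 0.82) came to -0.35 without Nas497 and -2.14 without Nas518, and was 0.67 after adjustment for the actin difference. All 4 Abi1 probe sets lay below 0, from -1.33 to -0.65, but Nas518 was the highest of all mice on the brightest. Nckap1, which anchors WAVE to Rac with the Cyfip subunit, had 9.13, 9.16 and 8.0 in WT glands against 8.69, 5.93 and 8.44 in Rac1-/- glands. Its log2 fold change of -1.08 (SE 0.78) was -0.20 without Nas497 and 0.83 after adjustment for the actin difference. In both genes Nas497 lay over 2 log2 units below every other mouse.

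Wasf2, the WAVE protein of most cells outside the brain, had levels of 8.39, 8.82 and 7.29 in WT glands against 8.37, 6.43 and 8.68 in Rac1-/- glands, with a log2 fold change of -0.34 (SE 0.70) that was 0.39 without Nas497 and 1.27 after adjustment for the actin difference. Brk1, the smallest subunit of the complex, was less dependent on that mouse, with 8.16, 8.34 and 7.89 in WT glands against 7.94, 7.18 and 6.78 in Rac1-/- glands. Only Nas496 reached the WT range, and the log2 fold change of -0.83 (SE 0.48) ran from -1.13 to -0.58 when single mice were left out and was -0.73 after adjustment for the actin difference. Both Brk1 probe sets lay below 0. Cyfip2, a subunit that binds active Rac, lay above 0, with 6.11, 5.69 and 6.0 in WT glands against 5.98, 8.34 and 6.80 in Rac1-/- glands. The groups overlapped through Nas496 only, and the log2 fold change of 1.11 (SE 0.63) was 0.50 without Nas497 and -0.14 after adjustment for the actin difference, while a dimmer probe set of Cyfip2 gave 2.16 (SE 0.76) with all Rac1-/- mice above all WT mice. The remaining 6 genes, Wasf1, Wasf3, Wasl, Was, Nckap1l and Abi2, lay between -0.25 and 0.050.

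Arp2/3 subunits, which nucleate the branches of the actin network, were split, with 2 of 4 measured genes above and 2 below 0 and a median log2 fold change of -0.32. Arpc2, one of the subunits at the core of the complex, had levels of 9.14, 9.30 and 7.13 in WT glands against 9.33, 7.31 and 9.10 in Rac1-/- glands, which gives a log2 fold change of 0.06 (SE 0.77). The WT mouse Nas484 and the Rac1-/- mouse Nas497 lay together near 7 while the other 4 mice lay together above 9, so the difference within each group was far larger than that between groups. Without Nas484 the estimate was -0.64 and without Nas497 it was 0.74, under scaling to a common median it was -0.71, and after adjustment for the actin difference it was 1.64. Arpc4, Arpc5 and Actr3 had estimates from -0.68 to 0.018, and Nas484 and Nas497 were the lowest of their groups for Arpc5 and Actr3 too. Dimmer probe sets separated the groups in both directions, at -1.18 (SE 0.47) for Arpc2, -2.09 (SE 0.87) for Arpc4 and 1.5 (SE 0.59) for Arpc5. After adjustment for the actin difference the median of the 4 genes was 1.16, and without Nas484 and Nas497 it was -0.03.

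Rab GTPases of the vesicle after closure did not separate the groups either. Rab5a, which marks early phagosomes and endosomes, had levels of 7.60, 8.29 and 6.44 in WT glands against 7.33, 5.40 and 7.94 in Rac1-/- glands, with a log2 fold change of -0.55 (SE 0.76) that was 0.22 without Nas497 and 1.20 after adjustment for the actin difference. Rab7, which marks the late stage and fusion with lysosomes, had 9.31, 9.17 and 9.91 in WT glands against 8.91, 9.53 and 9.32 in Rac1-/- glands, with a log2 fold change of -0.21 (SE 0.45). The estimate of Rab7 was -0.79 without normalization between arrays and -1.26 under scaling to a common median, where it had an unadjusted p under 0.05. Nas484 and Nas497 were the lowest of their groups for Rab5a and the highest for Rab7. Rab34, found on macropinosomes, had 0.27 and kept its sign in every alternative.

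On the probe sets used for the genes, this joint course of 1 WT and 1 Rac1-/- mouse ran through much of the machinery. Nas484 was the lowest WT mouse and Nas497 the lowest Rac1-/- mouse for 16 of the 43 genes, which is 37.2% against 19.4% of all genes, and both were the highest of their groups for 10, which is 23.3% against 28.6%. The 16 hold Crk, Crkl, Gulp1, Pak2, Cfl1, Iqgap1, Wasf2, Nckap1, Arpc2, Arpc5, Actr3 and Rab5a among others, and thus reach from the adaptors to the actin network and the early phagosome. The 10 include Bcar1, Limk1, Baiap2, Wasf3, Wasl and Rab7. Other probe sets of a gene could differ, as for Cfl1. On a dimmer Actr3 probe set Nas484 and Nas497 were the highest of their groups, at 8.21 and 8.54. On a dimmer Wasl probe set they were the lowest, at 5.16 and 5.71. A further probe set of Crk and of Iqgap1 kept them lowest. The course was not counted over all probe sets. Nas497 was the lowest of all 6 mice for 13 members, or 30.2% against 19.8% of all genes. It had the narrowest spread of intensities, the lowest actin difference and the highest Gapdh difference of all arrays. The part of array quality in these values was not tested.

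Probe sets of one gene often differed in sign. The 43 genes have 115 probe sets, of which 8 had all Rac1-/- mice above all WT mice, or 6.96% against 4.27% of all probe sets with 1 symbol, and 7 had all below, or 6.09% against 5.34%. Of 37 members with more than 1 probe set, 16 had all on the same side of 0, 6 above and 10 below, and 21 had probe sets on both sides. Besides those already given, Trio had a dimmer probe set with all Rac1-/- mice above WT, and Vav2 and Limk1 each had one with all below.

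Where the machinery as a whole lay depended on the scaling of the arrays. Under scaling to a common median, 32 of 43 members lay below 0 and the median was -0.51, while the median of all genes moved to -0.12. Without normalization between arrays the members had -0.038 and all genes 0.35. The gap between members and all genes was -0.085 with quantile normalization and -0.39 in both of these settings. These settings differ only by a constant for each array, so apart from values at the floor their gaps must be the same and count as 1 result. Leaving out Nas497 turned the member median to 0.061, and the actin difference as a covariate turned it to 0.063, with 26 members above 0. In all 16 alternatives 8 members kept their sign wherever they had a value, Elmo1, Pak3, Limk2 and Rab34 above 0 and Arhgef6, Pak2, Brk1 and Arpc4 below. For Elmo1, Pak3, Limk2, Arhgef6 and Pak2, whose groups lay apart, leaving out mice could hardly change the sign.

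**Figure D4:**
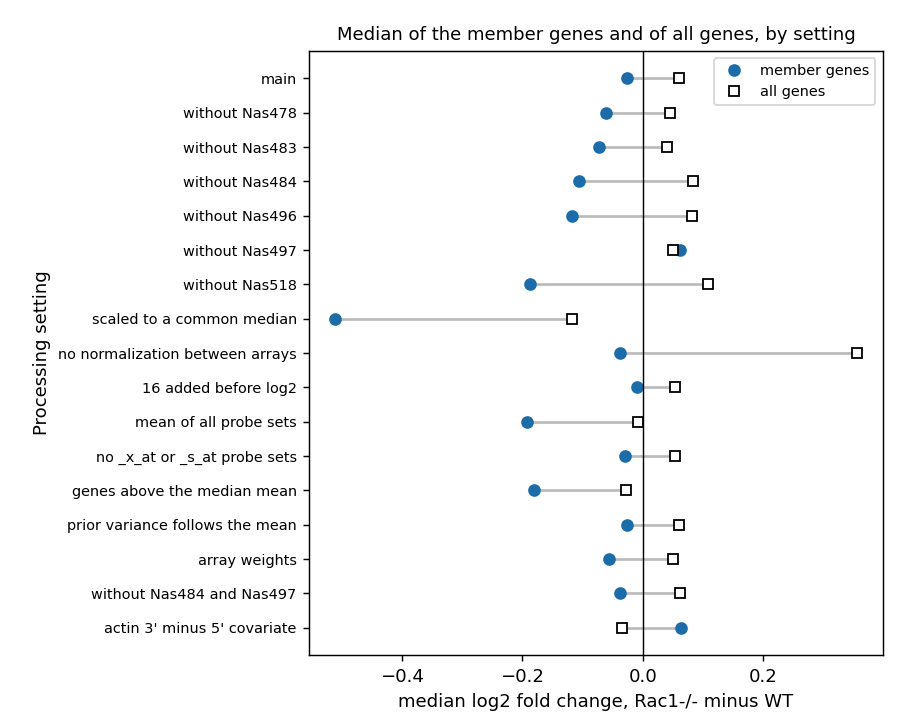
Median log2 fold change, Rac1-/- against WT glands, of the 43 genes of the engulfment machinery (filled circles; 34 where dim genes are left out) and of all genes tested (open squares) under each processing setting, 1 line per setting. The member median runs from -0.51 under scaling to a common median to 0.063 after adjustment for the actin difference, and lies above that of all genes only without Nas497 and with that covariate.

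Other genes of the pathway, from lists that hold none of the members, gave a similar picture, and 0 of their genes passed limma's adjusted test. At an unadjusted p under 0.05 in limma, Chn1 was higher and Mon1a was lower, where the shares over all genes are 2.23% and 1.82%. Of 14 Rac GTPase-activating proteins and GDIs, which switch Rac off or hold it in the cytosol, 10 lay above 0 with a median of 0.19. Chn1, a GTPase-activating protein for Rac, was the 1 among them with groups apart, where 5.41% of all genes have all Rac1-/- mice above. It lay at 1.38 (SE 0.54), from levels of 4.71, 4.09 and 5.36 in WT glands against 5.56, 6.77 and 6.0 in Rac1-/- glands, and Racgap1 had 1.01 (SE 0.89). Of 22 further exchange factors 10 lay above 0 with a median of -0.017. All Rac1-/- mice lay above all WT mice for 2 of them, Dock9 and Itsn1, and below for 0, where the shares over all genes are 5.41% and 4.2%. Those with the smallest p were Sos1, at -1.22 (SE 0.61), and Fgd4, at -1.34 (SE 0.67).

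Nearer to the actin network, 7 of 10 other PAK, WAVE, WASP and Arp2/3 genes lay below 0 with a median of -0.22. Arpc5l, a second form of the Arpc5 subunit, was the 1 among them with all Rac1-/- mice below all WT mice, against 4.2% of all genes. It lay at -0.84 (SE 0.45), and Pak4 had -1.43 (SE 1.01). Of 28 other actin regulators 18 lay below 0 with a median of -0.082. Pfn2, a profilin, had 0.98 (SE 0.62), and Actb, the gene of beta-actin, lay above in all Rac1-/- mice at 0.67 (SE 0.45), but at -0.52 under scaling to a common median and -0.05 without normalization. The value of Actb comes from the 5' control probe set, which also enters the actin difference. Capza1, which caps actin filaments, was the other gene of this list with all Rac1-/- mice above WT, against 5.41% of all genes. Of 28 other genes of phagosome maturation 17 lay below 0 with a median of -0.16, and 3 of them, Rab14, Pik3r4 and Mon1a, had all Rac1-/- mice below all WT mice, against 4.2% of all genes. Mon1a, part of the exchange factor that loads Rab7, had levels of 6.81, 6.69 and 6.25 in WT glands against 5.65, 2.95 and 3.84 in Rac1-/- glands, and its log2 fold change was -2.44 (SE 0.69, with a limma adjusted p of 0.946). It ran from -3.12 to -1.99 when single mice were left out. Pik3r4, the Vps15 subunit of the kinase that makes phosphatidylinositol 3-phosphate, had -1.63 (SE 0.77), or -0.77 at its weakest without a single mouse.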

How the data were processed

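Mammary gland RNA of 6 mice was amplified by the authors with the Affymetrix Sensation kit, meant for scarce or degraded RNA, and put on mouse arrays that were checked in Expression Console. The values that the authors deposited are linear intensities of 45101 probe sets, with a mean of 100 on each array once its top and bottom 2% are dropped. Which summary method, normalization and test they used is not given in the sources used here. Arrays have no read depth. With limma 3.58.1 (R 4.3.3) the intensities were quantile normalized, floored at 1 and converted to log2. Of the probe sets, 34958 name 1 gene symbol, 932 several and 9211 none, and only the first were used. A RefSeq table of GRCm38.p6 gave the same symbol for all 34754 that could be looked up by Entrez ID. Rac1-/- minus WT was estimated with limma's lmFit and eBayes, with p adjusted by Benjamini-Hochberg over 18194 genes, and further probe sets were fitted in the same way over the 34958. The fit was tested on simulated data.

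The members and gene lists were chosen with earlier results of these data known. Values are given for members whose groups did not overlap, the 10 members with the smallest p, Elmo1, Dock1, Crk, Gulp1, Pak2, Wasf2, Nckap1, Abi1, Arpc2, Cfl1, Rab5a and Rab7 whatever they showed, each Rac1 probe set, and the 2 genes of each further list with the smallest p; other members are given by range or by their estimate alone. The mice are separate animals, with no pairing in the labels. One further gene list is not reported here. Besides the markers named in the report, sets of fibroblast, adipocyte, endothelial and skeletal muscle markers had median log2 fold changes of 0.12, 0.27, -0.33 and -0.37. The alternatives leave out single mice or both Nas484 and Nas497, change the normalization, the offset, the probe sets, the filter or the prior variance, weight the arrays, or add the actin difference as a covariate.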

Additional observations from a re-analysis of the deposited data

How the results depend on the processing

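In limma no gene passed the adjusted threshold in any of the 16 alternatives. The count of 3 members at an unadjusted p under 0.05 became 0 with the mean of all probe sets and 0 without Nas484 and Nas497, and ran from 0 without Nas497 to 4 when single mice were left out, with 1 without Nas483. The count of 5 members with groups apart became 8 without normalization between arrays, 14 without Nas484 and Nas497 and from 5 to 10 without single mice, with 9 without Nas483, Nas496 or Nas497 and 10 without Nas484, where fewer mice make it easier for groups to lie apart. The median of -0.026 over the members became -0.51 under scaling to a common median, -0.19 with the mean of all probe sets and -0.18 over genes above the median mean, and ran from -0.19 without Nas518 to 0.061 without Nas497. The causes were not tested. Of 679 member estimates under the alternatives, 560 kept their sign and 119 changed it, none of them of the 5 genes with groups apart. For these 5, leaving out mice could hardly change the sign, because every Rac1-/- mouse lay on the same side of every WT mouse. The filter on the mean and the changed prior variance leave each estimate as it was. The count of kept signs is thus partly fixed in advance. No paired analysis was possible because the labels carry mouse names and no replicate numbers shared between groups. The 3 arrays per group limit what any single gene can show.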
